A study of Mus musculus and Homo sapiens with 32 samples.

Results

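The genes described here encode subunits and assembly factors of the mitochondrial respiratory chain and of ATP synthase. They were chosen by symbol, as every gene whose name starts with Nduf, Uqcr, Atp5, Sdh followed by a to d, or Cox followed by a digit from 4 to 8. Of the 11200 genes named in the 3 files on genotype, 54 matched, 46 of them subunit genes and 8 genes of assembly factors. In the table that compares genotypes, 51 of them had 95 regions of 33473; Atp5c1, Cox6b2 and Sdhc were named only in the peak lists. Of the 101 protein-coding genes of this pattern in RefSeq, 47 were not listed in the 3 files, so the results hold for the listed members alone. All values come from nuclear genes, since the pattern holds no gene of the mitochondrial genome.

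Complexes I to IV pass electrons from NADH and succinate to oxygen and pump protons out of the matrix, except complex II, which pumps none and is also an enzyme of the citric acid cycle. ATP synthase lets the protons flow back and makes ATP. Assembly factors put cofactors into single subunits or hold parts together while a complex is built, and are not part of the finished enzyme. N6-methyladenosine (m6A) is a methyl mark on RNA, placed on most marked messenger RNAs by a complex whose catalytic subunit is Mettl3.

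Bulk m6A-CT cuts RNA paired with its cDNA inside nuclei, at places where an anti-m6A antibody has bound, and input libraries come from nuclei cut without antibody. Genotypes were compared in C57BL/6 mouse embryonic stem cells that were Mettl3-/- (Mettl3 KO) or wild-type, with 2 m6A-CT and 2 input libraries of each and an antibody from MilliporeSigma. Peak lists with an antibody from Synaptic Systems came from mouse embryonic stem cells of the E14 line (aliquots of 5K, 25K or 100K nuclei), from expanded potential stem cells (EPSC) of the E14 line at 100K and from CF1 mouse embryonic fibroblasts (MEF) at 100K. Age, the number of knockout clones, the deleted part of Mettl3 and whether the 2 libraries of a group were separate cultures are not given in the labels.

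The genotype table has 1 pooled column per genotype and library kind, so no value has a replicate error, and intervals cover counting error alone. Pooled depth was 37532658 reads for Mettl3 KO m6A-CT, 51031598 for Mettl3 KO input, 39310394 for wild-type m6A-CT and 45090626 for wild-type input. The RNAs of Lars2 and Rn45s took many of these reads, and the rest of the table held 45.5% of Mettl3 KO m6A-CT, 19.0% of Mettl3 KO input, 63.5% of wild-type m6A-CT and 23.6% of wild-type input. Of 9 stem cell markers 7 were listed, with summed input of 612 RPM (reads scaled to the column's total) in Mettl3 KO and 827 RPM in wild-type, while 2 of 10 fibroblast markers were, with 0.941 RPM in Mettl3 KO and 0.399 RPM in wild-type. Pou5f1, Nanog and Sox2 were all present in both genotypes, and Col1a1, Col1a2 and Col3a1 had no listed region. Input over the Mettl3 region was 2.47 RPM in Mettl3 KO and 1.71 RPM in wild-type; since the deleted part is not given, this does not check the genotype labels.

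Upstream sequences of the members were compared first, as a feature that the choice by symbol did not use. NRF1 and GABPA are transcription factors known for driving nuclear genes of the respiratory chain. RefSeq windows of 250 bp before the transcription start (GRCm38.p6) were at hand for 46 members, in 48 windows. The NRF1 motif, searched as GCGC and TGCGC with any 1 base between them, on both strands, stood in 7 of the 48 member windows (14.6%) and in 3.74% of all 32851 windows. The GABPA motif, searched as CCGGAAG on both strands, stood in 10 member windows (20.8%) and in 6.91% of all windows. Atp5h, Cox6a1 and Sdhd held both motifs, and in 0 member windows did a match of 1 motif overlap a match of the other.

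The windows of 4 members are shown because their transcripts stand at the ends of the results below: Sdhaf2 and Ndufaf4 with high m6A-CT over input in wild-type, Sdha with the most peaks across lists, and Cox6a1 with a ratio near 1 in both genotypes. Each runs 5' to 3' on the gene's strand and ends at the base before the start, and capitals mark motif matches. The Sdhaf2 window (chr19:10525210-10525459, minus strand) has 1 GABPA match, in reverse orientation. Ndufaf4 (chr4:24897833-24898082, plus strand) has 1 NRF1 match, Sdha (chr13:74350241-74350490, minus strand) has 3, and Cox6a1 (chr5:115348959-115349208, minus strand) has 2 NRF1 matches and 1 GABPA match in reverse orientation.
Sdhaf2: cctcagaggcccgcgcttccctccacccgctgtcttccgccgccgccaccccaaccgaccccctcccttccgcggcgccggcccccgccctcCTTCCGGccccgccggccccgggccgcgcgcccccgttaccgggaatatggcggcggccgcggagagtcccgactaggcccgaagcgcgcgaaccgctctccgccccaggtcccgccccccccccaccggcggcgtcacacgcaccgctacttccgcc
Ndufaf4: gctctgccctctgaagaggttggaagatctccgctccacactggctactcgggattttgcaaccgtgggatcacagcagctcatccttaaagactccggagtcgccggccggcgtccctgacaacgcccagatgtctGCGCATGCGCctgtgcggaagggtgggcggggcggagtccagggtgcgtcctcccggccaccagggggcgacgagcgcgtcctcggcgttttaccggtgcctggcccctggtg
Sdha: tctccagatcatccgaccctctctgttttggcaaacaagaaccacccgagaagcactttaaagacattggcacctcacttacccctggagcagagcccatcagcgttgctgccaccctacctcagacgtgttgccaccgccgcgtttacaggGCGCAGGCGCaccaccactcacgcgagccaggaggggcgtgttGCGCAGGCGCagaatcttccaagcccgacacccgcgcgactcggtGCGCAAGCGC
Cox6a1: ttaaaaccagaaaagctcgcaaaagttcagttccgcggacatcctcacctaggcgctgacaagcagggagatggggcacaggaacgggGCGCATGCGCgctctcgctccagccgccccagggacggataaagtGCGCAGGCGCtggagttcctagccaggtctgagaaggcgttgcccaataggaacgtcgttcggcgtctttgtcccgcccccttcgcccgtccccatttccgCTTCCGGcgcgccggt
A match is a description of the letters, and binding was not measured. All positions below are on mm9, the build of the peak and region files.

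Respiratory chain transcripts carried little m6A-CT signal over input in either genotype. Over all listed regions of a gene, the median ratio of m6A-CT RPM to input RPM was 1.01 in Mettl3 KO and 1.37 in wild-type for the 45 members with at least 50 reads. The same medians over the 8889 genes of the table with that many reads were 1.93 in Mettl3 KO and 3.29 in wild-type. A ratio above 2 was found in 2 members in Mettl3 KO (4.44%, against 47.8% of all genes) and in 14 members in wild-type (31.1%, against 74.6% of all genes). In Mettl3 KO these were Ndufs1 and Sdha. A ratio above 1 was found in 23 members in Mettl3 KO (51.1%, against 86.1% of all genes) and in 32 in wild-type (71.1%, against 92.2% of all genes). The ratio was lower in Mettl3 KO in 35 of the 45, against 84.8% of all genes.

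The level of these ratios rests on the totals that the RPM values use. With Lars2 and Rn45s taken out of the totals, the medians became 0.422 in Mettl3 KO and 0.507 in wild-type for the members, and 0.803 in Mettl3 KO and 1.22 in wild-type for all 8807 genes with input reads in both genotypes. Members thus lay below the median of all genes on either scale. The listed regions are those that differed between genotypes, so neither set is a sample of whole transcripts.

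**Figure D1:**
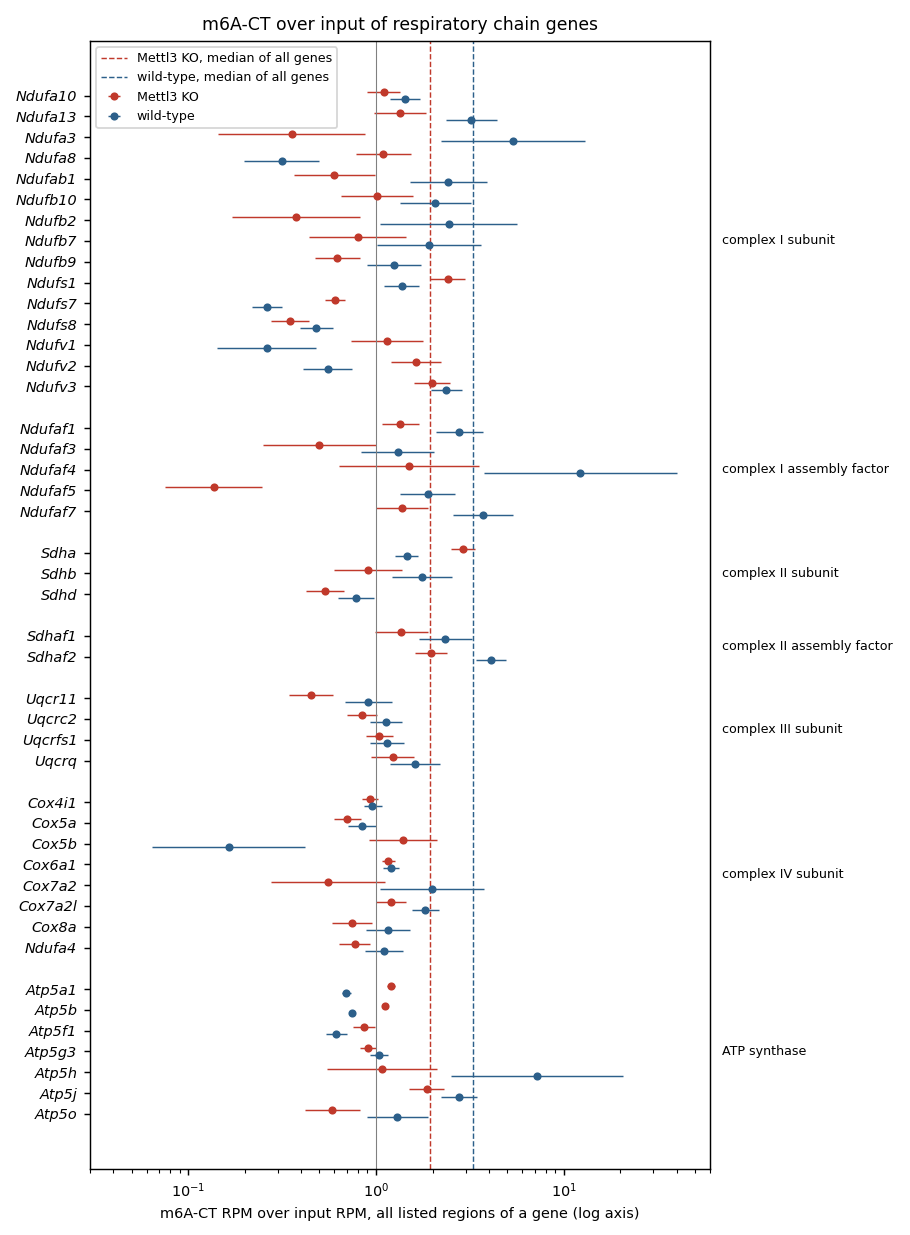
m6A-CT RPM over input RPM (log axis) for 44 of the members with at least 50 reads, ordered by role, with Mettl3 KO in red and wild-type in blue; bars are 95% intervals of counting error and dashed lines the medians of all genes, 1.93 in Mettl3 KO and 3.29 in wild-type. Most members lie left of both dashed lines, and Sdha and Ndufs1 are the members above 2 in Mettl3 KO.

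In the authors' deposited table, which gives the change of m6A-CT over input between genotypes with a false discovery rate (FDR), 73 member regions fell in Mettl3 KO and 22 rose, at FDR 0.05. Those are 76.8% lower and 23.2% higher, against 88.8% lower and 11.0% higher over all regions. Of the 33473 listed regions 4 had an FDR above 0.05 and 78 had none, so the direction can be read from the table and the share of changed regions cannot. At FDR 0.01 the authors' deposited table had 43 member regions lower and 9 higher, against 62.9% and 4.62% of all regions. A counting test on the pooled reads, chosen after seeing the data, called 34 member regions lower and 23 higher without an offset (55.3% and 10.9% of all regions), and 71 lower and 22 higher with the authors' median offset (88.2% and 10.3% of all regions), so the counts depend on that offset. The median log2 change in the authors' deposited table was -1.07 for the members and -1.35 for all regions. By plain RPM, which leaves out an offset in the authors' fit (median -0.50), these medians were -0.55 and -0.84, and without Lars2 and Rn45s in the totals -0.38 and -0.67. Changes of single regions below are on the authors' scale unless RPM is named, and are best read against the median of that scale.

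The sign turned between the scales in 4 member regions, which the authors' deposited table has as lower and the RPM values as higher: 2 of Atp5b, 1 of Cox4i1 and 1 of Cox6a1. Of the 87 regions with reads in every column 2, the most 5' ones of Atp5g3 and Cox6a1, lay over 1 log2 unit below their RPM change on the authors' scale. By gene, 36 members had only lower regions, 12 only higher regions, and Atp5b, Atp5f1 and Ndufs1 had both. Shares over all genes are not given for this split.

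**Figure D2:**
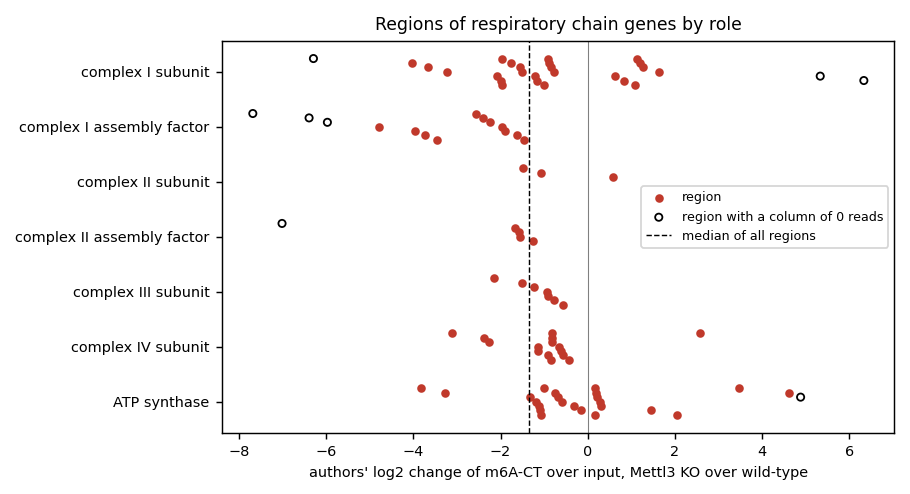
Log2 change of m6A-CT over input in the authors' deposited table, Mettl3 KO over wild-type, with 1 point per member region by role; open points are the 8 regions in which a column has 0 reads, and the dashed line is the median of all regions, -1.35. All 19 regions of assembly factors lie below 0, while 11 of 24 regions of ATP synthase lie above 0.

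Among the members, the assembly factors stood lowest. All 19 regions of their 8 listed genes fell in the authors' deposited table, with a median log2 change of -2.41, against 54 lower and 22 higher regions and a median of -0.84 for the subunits. By RPM the medians were -1.91 for assembly factors and -0.37 for subunits. Their ratios over input were also higher in wild-type: over 7 assembly factor genes with at least 50 reads the median was 1.36 in Mettl3 KO and 2.78 in wild-type, against 0.916 in Mettl3 KO and 1.22 in wild-type over 38 subunit genes. Of those 19 regions 7 belong to Ndufaf5, and the difference between the kinds of gene was not tested. The background for these counts is 88.8% lower. Regions of assembly factors also had fewer reads, a median of 80.0 against 364 for subunits. Over regions with at least 50 reads, the medians in the authors' deposited table were -1.9 for assembly factors and -0.89 for subunits, against -1.3 for all regions. The part of read depth in this difference was not tested. The list of partners outside the symbol pattern, given below, is also mostly assembly factors. In the authors' deposited table it had 45 lower and 9 higher regions and a median of -1.36, near the -1.35 of all regions. The low median of the members' assembly factors was thus not seen in that list.

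Ndufaf5, a hydroxylase that modifies the complex I subunit Ndufs7, had the largest fall by summed RPM of the 7 assembly factors with at least 50 reads (log2 -3.78, counting SE 0.50). Summed over its 7 regions it had 0.320 RPM in Mettl3 KO m6A-CT over 2.33 in Mettl3 KO input, against 2.34 in wild-type m6A-CT over 1.24 in wild-type input. These are ratios of 0.137 (95% counting interval 0.0757 to 0.248) in Mettl3 KO and 1.88 (1.35 to 2.63) in wild-type, from 12 and 92 m6A-CT reads. The intervals do not meet, and 3 of the 7 regions had no m6A-CT read in Mettl3 KO. Regions were listed for a change between genotypes, so the gap between intervals is not independent evidence of a difference. The most-read region, chr2:140002991-140003015, fell by 3.73 in the authors' deposited table (FDR 0.00211, counting SE 1.01) and another, chr2:140014466-140014640, by 2.56 (FDR 0.0234, counting SE 0.89).

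Sdhaf2, which helps attach the flavin cofactor to Sdha, had 6.37 RPM in Mettl3 KO m6A-CT over 3.25 in Mettl3 KO input, and 12.8 RPM in wild-type m6A-CT over 3.13 in wild-type input. Its ratio was 1.96 (1.61 to 2.39) in Mettl3 KO and 4.08 (3.39 to 4.92) in wild-type, with input almost equal. All 3 of its regions fell by similar amounts in the authors' deposited table, from -1.66 to -1.55, and the 2600-bp region at chr19:10575002-10577601 had the lowest FDR of any member (4.07e-09). Sdhaf1, which brings iron-sulfur clusters to Sdhb, had 1.94 RPM over 1.43 in Mettl3 KO and 2.80 over 1.20 in wild-type, and fell by 1.25 (FDR 0.00215) in the authors' deposited table. Sdhaf3, another factor for Sdhb, had only 28 reads and none in wild-type input, so no RPM change is given for it.

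Ndufaf4, an early complex I assembly factor, had the highest wild-type ratio of all members with at least 50 reads. Its region at chr4:24825725-24825799 had 0.293 RPM of m6A-CT over 0.196 of input in Mettl3 KO, against 0.814 over 0.0665 in wild-type. The ratios were 1.50 (0.635 to 3.52) in Mettl3 KO and 12.2 (3.75 to 40.0) in wild-type, with only 3 reads in wild-type input. In the authors' deposited table it fell by 3.46 (FDR 0.00902, counting SE 1.08).

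Ndufaf7, another complex I assembly factor, had 2.05 RPM over 1.49 in Mettl3 KO and 3.05 over 0.821 in wild-type. Its ratio was 1.38 (1.00 to 1.89) in Mettl3 KO and 3.72 (2.57 to 5.38) in wild-type, and its 3 regions fell by 1.62 to 2.41 in the authors' deposited table. Ndufaf1 likewise had a ratio of 1.35 (1.07 to 1.70) in Mettl3 KO and 2.78 (2.09 to 3.70) in wild-type. For Ndufaf3 the intervals met, at 0.499 (0.250 to 0.995) in Mettl3 KO and 1.31 (0.835 to 2.04) in wild-type, and its region fell by 1.90 (FDR 0.0114) in the authors' deposited table.

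Among the subunits that these factors act on, Ndufs7 and Sdha rose, while Sdhb fell by 1.48 (FDR 0.00293) in the authors' deposited table. Ndufs7, the target of Ndufaf5, rose in both its regions in the authors' deposited table (0.84, FDR 0.00324, and 0.63, FDR 0.0323), with ratios under 1 in both genotypes: 0.604 (0.533 to 0.686) in Mettl3 KO and 0.262 (0.218 to 0.315) in wild-type. Sdha, the target of Sdhaf2, and Sdhb, that of Sdhaf1 and Sdhaf3, are given with complex II.

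Complex I subunits went both ways. Over their 27 regions 18 fell and 9 rose in the authors' deposited table (66.7% and 33.3%, against 88.8% and 11.0% of all regions), with a median of -1.01. Members of the NADH-oxidising arm were among those that rose. Ndufv1, which holds the flavin and binds NADH, had 0.986 RPM over 0.862 in Mettl3 KO and 0.331 over 1.26 in wild-type. It rose by 1.63 (FDR 0.0180, counting SE 0.55) in the authors' deposited table. Ndufv2, its iron-sulfur partner, had 2.42 RPM over 1.49 in Mettl3 KO and 1.65 over 2.99 in wild-type, and rose by 1.12 (FDR 0.00297, counting SE 0.31) in the authors' deposited table.

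Ndufs1, the largest iron-sulfur subunit, had 6.18 RPM over 2.57 in Mettl3 KO and 4.60 over 3.37 in wild-type. Its ratio was 2.41 (1.94 to 2.98) in Mettl3 KO and 1.37 (1.10 to 1.69) in wild-type. The intervals do not meet, but its regions too were listed for a change between genotypes. Its 3 regions also disagreed. The authors' deposited table has chr1:63206338-63206437 higher by 1.20 (FDR 0.0131) and chr1:63211545-63211594 by 1.09 (FDR 0.0346), while chr1:63193885-63193984, nearer the 3' end, fell by 1.16 (FDR 0.0221). By RPM these were 1.58, 1.53 and -0.74, so the split holds on both scales.

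Ndufv3, a small accessory subunit of the same arm, was lower by 0.78 (FDR 0.00253) in the authors' deposited table and by RPM stood at -0.25, with a counting SE of 0.21. Its 1075-bp region had 5.12 RPM over 2.57 in Mettl3 KO and 8.47 over 3.57 in wild-type, ratios of 1.99 (1.60 to 2.49) in Mettl3 KO and 2.37 (1.97 to 2.86) in wild-type. Ndufa8, an accessory subunit, rose by 1.27 (FDR 0.0152) in the authors' deposited table, with ratios of 1.09 (0.779 to 1.53) in Mettl3 KO and 0.314 (0.198 to 0.498) in wild-type. The regions of Ndufa1 and Ndufa9, on 15 and 14 reads and with no wild-type m6A-CT read, were also listed as higher.

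The accessory subunits that fell most had few reads. Ndufa3 had 0.160 RPM over 0.451 in Mettl3 KO and 0.712 over 0.133 in wild-type, on 63 reads in all. The ratios were 0.355 (0.144 to 0.871) in Mettl3 KO and 5.35 (2.22 to 12.9) in wild-type, and its larger region fell by 4.02 (FDR 5.22e-04, counting SE 0.99) in the authors' deposited table. Ndufb2, on 62 reads, had ratios of 0.375 (0.171 to 0.820) in Mettl3 KO and 2.44 (1.05 to 5.65) in wild-type, and fell by 3.22 (FDR 0.00137) in the authors' deposited table. Ndufab1, the mitochondrial acyl carrier protein, had ratios of 0.601 (0.368 to 0.982) in Mettl3 KO and 2.43 (1.51 to 3.91) in wild-type. For Ndufa13 they were 1.34 (0.980 to 1.84) in Mettl3 KO and 3.21 (2.35 to 4.38) in wild-type; its listed blocks overlap those of Tssk6 on the opposite strand, and whether counting used strand is not stated.

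In complex II, the region of Sdha, the flavoprotein that oxidises succinate, was the only one that rose. At chr13:74474857-74474981 it had 15.0 RPM of m6A-CT over 5.17 of input in Mettl3 KO and 10.8 over 7.41 in wild-type. The ratio was 2.89 (2.50 to 3.35) in Mettl3 KO, the highest of all members with at least 50 reads, and 1.46 (1.26 to 1.68) in wild-type. It rose by 0.57 (FDR 0.00137, counting SE 0.15) in the authors' deposited table and by 0.99 by RPM.

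Sdhb, the iron-sulfur subunit, had 0.959 RPM over 1.06 in Mettl3 KO and 1.83 over 1.04 in wild-type, a log2 change of -0.95 by RPM. Sdhd, a membrane anchor, had 2.66 RPM over 4.98 in Mettl3 KO and 3.33 over 4.26 in wild-type, and fell by 1.07 (FDR 8.90e-05) in the authors' deposited table from a ratio already under 1. Sdhc, the other anchor, had no region.

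All 7 regions of complex III fell in the authors' deposited table, against 88.8% of all regions, with a median of -0.93, nearer 0 than the -1.35 of all regions. Ratios over the 4 genes ran from 0.449 to 1.23 in Mettl3 KO and from 0.911 to 1.62 in wild-type. Uqcrfs1, the Rieske iron-sulfur protein, had ratios of 1.04 (0.881 to 1.23) in Mettl3 KO and 1.14 (0.925 to 1.41) in wild-type, which differed by less than counting error. Uqcrc2, a core protein, had 0.841 (0.698 to 1.01) in Mettl3 KO and 1.13 (0.926 to 1.38) in wild-type, and again the intervals met. Uqcr11, a small subunit, had 0.449 (0.343 to 0.587) in Mettl3 KO and 0.911 (0.680 to 1.22) in wild-type, and its 3 regions fell by 1.24 to 2.15 in the authors' deposited table.

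Complex IV had 14 lower regions and 1 higher in the authors' deposited table (93.3% and 6.67%, against 88.8% and 11.0% of all regions), with a median of -0.83. By RPM 12 were lower and 3 higher, against 86.6% and 13.4% of all regions. Its most-read subunits were flat: Cox4i1, the regulatory subunit, had 17.9 RPM over 19.3 in Mettl3 KO and 15.0 over 15.7 in wild-type. Cox6a1 had 27.8 RPM over 24.0 in Mettl3 KO and 21.2 over 17.7 in wild-type. Their RPM log2 changes were both -0.05, with counting SEs of 0.11 and 0.09, while the regions of both were called lower in the authors' deposited table.

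Cox5b, another nuclear-encoded subunit, was the exception. Its region at chr1:36750065-36750233 had 1.17 RPM over 0.843 in Mettl3 KO and 0.127 over 0.776 in wild-type, and it had the highest rise of any member region with at least 50 reads, 2.57 (FDR 0.00533, counting SE 0.76) in the authors' deposited table. Wild-type m6A-CT rested on 5 reads. Cox7a2l, which joins complexes III and IV into supercomplexes, had 3 lower regions in the authors' deposited table, of which chr17:83913550-83913673 fell by 3.12 (FDR 4.49e-04, 80 reads). Over the gene its ratio was 1.20 (1.00 to 1.44) in Mettl3 KO and 1.83 (1.55 to 2.16) in wild-type.

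ATP synthase was the complex with the most even split, 13 lower and 11 higher regions in the authors' deposited table (54.2% and 45.8%, against 88.8% and 11.0% of all regions) and a median of -0.24, or 0.26 by RPM. Atp5b and Atp5a1, the catalytic beta and alpha subunits, held 66.6% of all reads over member regions. Atp5b had 322 RPM over 286 in Mettl3 KO and 239 over 322 in wild-type, ratios of 1.12 (1.10 to 1.15) in Mettl3 KO and 0.741 (0.722 to 0.761) in wild-type. Atp5a1 had 84.5 RPM over 70.6 in Mettl3 KO and 53.9 over 77.6 in wild-type, ratios of 1.20 (1.14 to 1.26) in Mettl3 KO and 0.694 (0.658 to 0.733) in wild-type. Both were thus under input in wild-type and over it in Mettl3 KO, on a scale that moves with the totals.

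The region changes of these 2 genes were small and lay on both sides of 0 in the authors' deposited table, from -0.32 to 0.31 for Atp5b and from 0.22 to 0.29 for Atp5a1, while by RPM all 8 of them were above 0. Atp5f1, subunit b of the stalk, split along the gene. Its 2 regions nearer the 3' end rose by 2.05 (FDR 1.65e-04) and 1.45 (FDR 4.94e-06) in the authors' deposited table, and its 2 regions nearer the 5' end fell by 1.12 and 1.10. By RPM the same regions stood at 2.42, 1.86, -0.60 and -0.61.

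Of the smaller parts, Atp5h, subunit d, had 0.400 RPM over 0.372 in Mettl3 KO and 0.636 over 0.0887 in wild-type, on 63 reads. It fell by 3.27 (FDR 0.00344) in the authors' deposited table. Atp5o, which links the stalk to the catalytic head, had ratios of 0.584 (0.418 to 0.817) in Mettl3 KO and 1.30 (0.896 to 1.89) in wild-type, and its region at chr16:91925468-91925617 fell by 3.83 (FDR 0.00369) in the authors' deposited table. Atp5j, coupling factor 6, kept ratios above 1 in both, 1.86 (1.49 to 2.31) in Mettl3 KO and 2.77 (2.21 to 3.46) in wild-type. Atp5g3, a subunit of the rotating c ring, had 18.9 RPM over 20.8 in Mettl3 KO and 15.3 over 14.7 in wild-type. The regions of Atp5e, Atp5g1 and Atp5s were called higher on 41, 34 and 42 reads.

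The higher regions started low. Of the 22 member regions that rose, 20 had a wild-type ratio under 1, against 56.4% of all higher regions. Of the 73 that fell, 60 had a wild-type ratio over 1, against 97.9% of all lower regions, so 13 fell from at or under input. Wild-type m6A-CT enters both the ratio and the change, so these counts are not independent of the direction.

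Long regions were the more enriched ones. The 11 member regions of at least 500 bp had a median ratio of 1.46 in Mettl3 KO and 2.37 in wild-type, and all 11 fell in the authors' deposited table, against 97.5% lower and 2.45% higher of all regions of that length. The 84 shorter regions had 0.868 in Mettl3 KO and 1.16 in wild-type, and 62 fell and 22 rose (against 85.6% lower and 14.0% higher of all shorter regions). Over all regions the wild-type medians were 4.44 and 2.97 for the same classes. Across the 87 member regions with reads in every column, Spearman's rho of length with wild-type ratio was 0.23, against 0.19 over 31111 regions, which is a description only, since regions of a gene share libraries.

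Input, a measure of nuclear RNA that can be cut, was more often higher in Mettl3 KO. Over the same listed regions it was higher in Mettl3 KO in 32 of the 45 members with at least 50 reads (against 48.6% of all genes), with a median log2 of 0.35, against -0.03 for all genes. Among the lists given below, it was also higher in 35 of 46 mitochondrial ribosomal protein genes (median 0.31). So it was in 12 of 18 genes of import factors and chaperones (median 0.55). The other gene lists below had medians from -0.19 to 0.02. In bulk samples fewer cells of a type and less RNA per cell cannot be told apart. Regions were listed for a change of m6A-CT over input, so their input is not independent of that choice. Of the 50 members with input reads in both genotypes, the 95% counting interval lay above 0 for 21, below 0 for 9 and held 0 for 20. Shares over all genes are not given for these intervals, so the counts describe the members alone.

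By role, input was higher in Mettl3 KO in all 4 complex III genes and in 7 of 8 complex IV genes. Uqcr11 had 4.21 RPM in Mettl3 KO input and 2.26 in wild-type input, and Ndufa4, once counted with complex I and now with complex IV, had 5.60 RPM in Mettl3 KO and 3.19 in wild-type. Ndufb9 had 3.21 RPM in Mettl3 KO and 1.49 in wild-type, a log2 of 1.11 (0.70 to 1.52). In the other direction, Ndufv2 had 1.49 RPM in Mettl3 KO and 2.99 in wild-type, a log2 of -1.01 (-1.41 to -0.60), and Sdha had 5.17 RPM in Mettl3 KO and 7.41 in wild-type, a log2 of -0.52 (-0.75 to -0.29). Of the 10 members whose ratio over input was higher in Mettl3 KO, 8 had lower input there, all but Ndufs7 and Cox5b. Of the 35 with a lower ratio 30 had higher input. Input is the divisor of the ratio, so these counts are not independent of the ratio's direction. They are given without the share over all genes, so they are not read as a trait of the members. The part of input in these ratios was not tested.

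**Figure D3:**
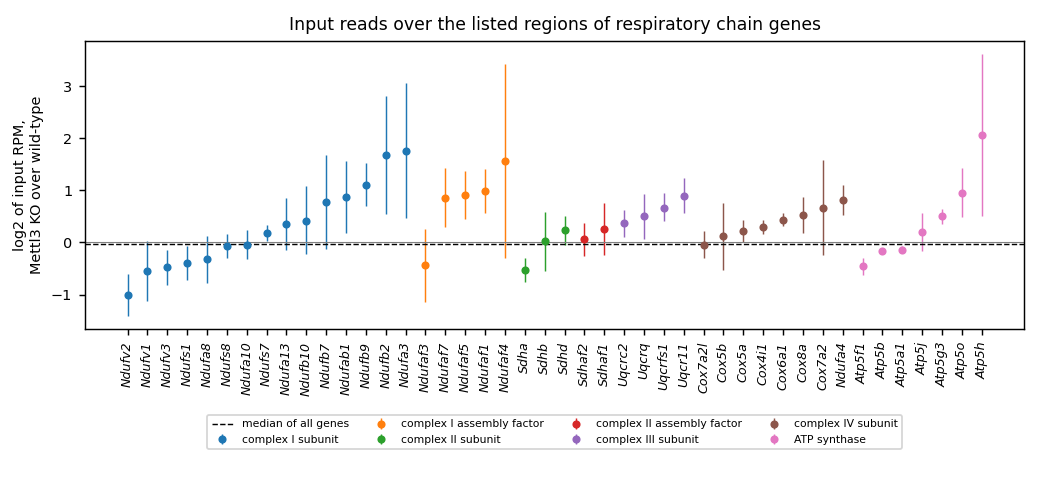
Log2 of input RPM, Mettl3 KO over wild-type, for 44 of the members with at least 50 reads, ordered by role and value; bars are 95% intervals of counting error and the dashed line is the median of all genes, -0.03. All 4 complex III genes lie above 0, while Ndufv2 (-1.01) is the lowest member.

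MeTPeak, a peak caller for m6A sequencing that tests exon blocks of a gene, gave 1 list per genotype. Members had a peak in 13 of 54 genes in Mettl3 KO (24.1%, Wilson 95% interval 14.6 to 36.9) and in 8 in wild-type (14.8%, 7.70 to 26.6). Over all 11200 genes the shares were 41.4% in Mettl3 KO and 52.1% in wild-type. The intervals take genes as independent and are a description only. The same 54 genes were scored in both genotypes, so these intervals do not compare the genotypes. Sdhc, which has no region, is among the 54 only through its peaks in Mettl3 KO. At a fold of at least 4 the counts were 3 in Mettl3 KO and 3 in wild-type. Both lists held Atp5c1, Cox6a1, Cox6b2, Cox7a2l, Ndufaf4 and Sdha (11.1%, against 35.3% of all genes). A peak in Mettl3 KO alone was listed for 7 members (13.0%, 6.42 to 24.4, against 6.09% of all genes) and in wild-type alone for 2 (3.70%, 1.02 to 12.5, against 16.8%). The other 39 had none; with 1 list per genotype the difference was not tested over replicates.

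Among the members with a peak in Mettl3 KO alone were Ndufs1 at a highest fold of 3.57, Atp5a1 at 3.39, Ndufv2 at 3.14, Sdhc at 2.67, Atp5b at 2.22 and the assembly factor Ndufaf7 at 1.75. These folds are the peak caller's own values as deposited, and serve here to describe peaks. For Ndufs1 the 3 peaks covered 14 exon blocks and 1540 exonic bp, and for Atp5b 1 peak covered 7 blocks and 1089 bp. The 2 peaks of Ndufaf7 (chr17:79341427-79342593 and chr17:79344405-79345763) lie for the most part outside its 3 regions in the authors' deposited table, so its peaks and its regions report on largely different stretches.

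In wild-type alone stood Ndufv3, with 2 peaks and a highest fold of 7.0, and Sdhaf2, with 3 peaks and a highest fold of 5.00. The Sdhaf2 peaks included chr19:10576200-10576750 and chr19:10576999-10577549, both inside the long region that fell in the authors' deposited table. Of the peaks in both lists, Cox6b2, the testis form of a complex IV subunit, had a fold of 6.71 in Mettl3 KO and 2.29 in wild-type, and Sdha had 5.36 in Mettl3 KO and 3.48 in wild-type. Cox6a1 had 1.78 in Mettl3 KO and 2.43 in wild-type. Ndufaf4 had 6.00 in both, Cox7a2l 3.43 in Mettl3 KO and 3.38 in wild-type, and Atp5c1 3.14 in Mettl3 KO and 2.95 in wild-type.

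Overlap of exon blocks was partial. Of the 20 member peaks in Mettl3 KO 6 met a wild-type peak, and of the 11 in wild-type 6 met one in Mettl3 KO. The same share over all peaks is not given, so these counts are not read as a trait of the members. The median fold of member peaks was 3.07 in Mettl3 KO and 3.48 in wild-type, against 3.25 in Mettl3 KO and 3.71 in wild-type over all peaks. For Ndufaf4 the wild-type peak at chr4:24828915-24829512 lies 3' of the region that fell in the authors' deposited table, so the peak and the region do not report on the same stretch.

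**Figure D4:**
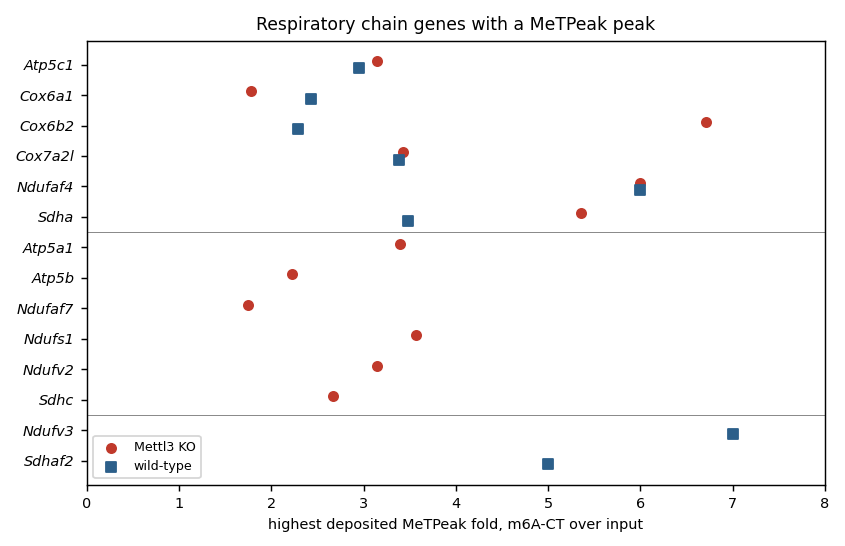
Highest deposited MeTPeak fold of m6A-CT over input for 14 members with a peak, with Mettl3 KO as red circles and wild-type as blue squares; lines part genes with peaks in both lists, in Mettl3 KO alone and in wild-type alone. Cox6b2 shows the widest gap (6.71 in Mettl3 KO and 2.29 in wild-type), and 6 genes shown have a red circle alone.

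In the MACS2 lists of E14 cells few members met a peak at any number of nuclei. At 5K nuclei 1 of 54 did (against 14.9% of all genes), at 25K 0 (against 9.97%) and at 100K 0 (against 19.0%). For a count of 0 of 54 the Wilson upper limit is 6.64%. The peak at 5K was that of Ndufs1, at chr1:63194955-63195054, with a deposited fold enrichment of 6.01, the median of that list. Peaks were matched to the exon blocks that the genotype files list. Matching to the whole span between the outermost listed blocks gave the same counts in all 5 mouse lists, and a peak outside that span would be missed. Of the 95 member regions 11 were at least 500 bp long, against 8912 of 33473 over all regions. Shares of members and of all genes thus do not rest on equal lengths of sequence in any of these lists.

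In EPSC 3 members met a peak (5.56%, 1.91 to 15.1, against 27.4% of all genes) and in MEF 2 (3.70%, 1.02 to 12.5, against 39.8%). Ndufv3 (6.96-fold, chr17:31664817-31665078) and Ndufaf4 (6.52-fold, chr4:24828896-24829253) had their peaks in EPSC, each above the median of 5.20 of that list. Both lie over wild-type MeTPeak peaks of the same genes, from other cells and another antibody. The Ndufaf4 peak also lies over a Mettl3 KO MeTPeak peak (chr4:24828965-24829363). Of all member peaks, 4 of 5 in EPSC, 12 of 12 in MEF and 1 of 1 in E14 at 5K met a Mettl3 KO MeTPeak peak. For wild-type MeTPeak peaks the counts were 5 of 5 in EPSC, 10 of 12 in MEF and 0 of 1 in E14 at 5K. Sdha alone held 3 of these peaks in EPSC and 11 in MEF, so the counts rest largely on 1 gene. A share over all MACS2 peaks is not given beside them. Ndufs1 had a peak in MEF (3.22-fold, chr1:63194955-63195193) that starts at the same base as the one in E14 at 5K. The lists differ in length, with 4644, 3923 and 8052 peaks in E14 at 5K, 25K and 100K, 12183 in EPSC and 38205 in MEF, and each comes without replicates, so no difference between them was tested.

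Sdha carried peaks along much of the gene. It had 3 peaks in EPSC, from 2.43-fold to 3.07-fold, and 11 in MEF, from 1.65-fold to 5.46-fold, and none in the E14 lists. The MEF peaks met 12 of its 14 listed exon blocks and the EPSC peaks met 3. Most of these folds are low for their lists, whose medians were 5.20 in EPSC and 4.44 in MEF. The region that rose in Mettl3 KO lies inside the highest EPSC peak (chr13:74474820-74474987) and inside a MEF peak (chr13:74474785-74474987). In the genotype set the MeTPeak peaks of Sdha likewise ran over 14 blocks in Mettl3 KO and 13 in wild-type.

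**Figure D5:**
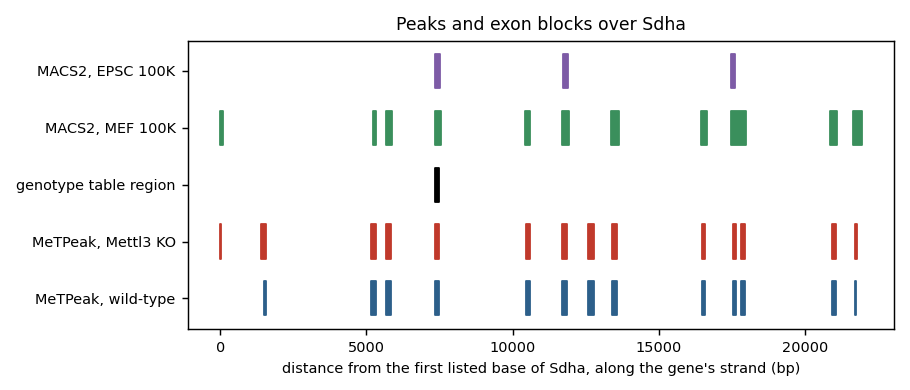
Peaks and blocks over Sdha, by distance in bp from the first listed base along the gene's strand; rows are the MACS2 lists of EPSC and MEF, the region of the genotype table, and the exon blocks of the MeTPeak peaks in Mettl3 KO and wild-type. The 11 MEF peaks are spread over the whole gene and meet 12 of 14 exon blocks, while the 3 EPSC peaks meet 3.

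Other mitochondrial gene lists were set beside the members in the authors' deposited table. The background for every list is 88.8% lower and 11.0% higher over all regions, with a median of -1.35. Partners of the respiratory chain outside the symbol pattern, mostly complex IV and complex I assembly factors, had 24 of 41 genes listed, with 45 lower and 9 higher regions (83.3% and 16.7%) and a median of -1.36. Among them Coa5, Cox15, Sco1 and Tmem186 had the most reads, and Sco1, a copper chaperone for complex IV, had ratios of 1.84 in Mettl3 KO and 4.11 in wild-type. Cox15, which makes heme A, had 1.27 in Mettl3 KO and 2.06 in wild-type. The list's median ratio was 1.92 in Mettl3 KO and 2.25 in wild-type, above that of the subunits.

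Mitochondrial ribosomal proteins had 106 lower and 10 higher regions in the authors' deposited table (91.4% and 8.62%, against 88.8% and 11.0% of all regions, median -1.33). Their ratios were 1.03 in Mettl3 KO and 1.84 in wild-type. Regulators of mitochondrial biogenesis had 86 lower and 4 higher (95.6% and 4.44%, median -0.98), with ratios of 2.20 in Mettl3 KO and 3.25 in wild-type. Gabpa itself had 4.85 in Mettl3 KO and 6.11 in wild-type. Import factors and chaperones had 39 lower and 4 higher (90.7% and 9.30%, median -1.07). Citric acid cycle genes had 22 lower and 7 higher (75.9% and 24.1%, median -0.61). Glycolytic genes had 30 lower and 13 higher (69.8% and 30.2%, median -0.55), and cytosolic ribosomal proteins 43 lower and 14 higher (74.1% and 24.1%, median -0.53). By RPM the medians of the last 3 lists were -0.10, -0.04 and 0.00, so their direction is not held by that scale. The median wild-type ratio was 1.13 for citric acid cycle genes, 0.956 for glycolytic genes and 1.43 for cytosolic ribosomal proteins, near the 1.37 of the respiratory chain members.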

How the data were processed

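Bulk m6A-CT and input libraries of 32 samples were grouped by their labels. The submitters' processing notes name Trim Galore, STAR 2.7.2, MACS2 and, for mouse, mm9. MeTPeak and exomePeak2 are named by the labels of the genotype set, without version; how multi-mapped reads were treated is not given in the sources used here, and many respiratory chain genes have processed pseudogenes. The deposited MACS2 columns are a score (10 times -log10 q), a fold ratio at the summit, -log10 p and q, and other columns of position. The authors' MeTPeak lists hold a p-value and FDR, their log10, a fold ratio and exon blocks. The deposited exomePeak2 table holds RPM per genotype and library kind, a log2 change, a p-value and an FDR. Its RPM values are whole multiples of 1 read (99.997% within 0.01 reads), which gave back the reads.

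Ratios were computed from RPM summed over the listed regions of a gene, with 95% Wald intervals on the log scale from the reads of each column. No molecular identifiers are named, so reads may be PCR copies and intervals cover counting error only. A column without reads was held at 3 reads for medians on the RPM scale (0.0588 to 0.0799 RPM by column), and the authors' log2 there is no bound. Peaks were matched to exon blocks by at least 1 bp. Shares carry Wilson intervals. Genes named in full were the 8 lowest and 8 highest regions with at least 50 reads, the 5 highest wild-type ratios, the 5 with most input, those with peaks in a MACS2 list or in 1 MeTPeak list, and Sdha to Sdhd; the remaining members were named by role. Members, lists and rules were chosen with earlier results of these data known. A counting test added as an alternative was tested on simulated data with the reads of Mettl3 KO and wild-type, where it recovered 71.0% of 200 regions lowered 4-fold among 33473. Alternatives covered totals, offset, FDR, read minimum and peak thresholds. Python 3.11.15, pandas 2.3.3, NumPy 2.4.6, SciPy 1.17.1 and matplotlib 3.10.9 were used. Human peaks were not used here. The values of 1 member, counted in the totals, are not reported here.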

Additional observations from a re-analysis of the deposited data

How the results depend on the processing

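No paired analysis was possible because the columns are pooled per genotype and carry no replicate number, and leaving out replicates was not possible for the same reason. At FDR 0.01 the member regions numbered 43 lower and 9 higher, against 73 and 22 at FDR 0.05 (backgrounds of 62.9% and 4.62% of all regions). A counting test without offset, chosen after seeing the data, gave 34 lower and 23 higher (55.3% and 10.9% of all regions); with the authors' median offset it gave 71 and 22 (88.2% and 10.3% of all regions). The members' median log2 was -1.07 on the authors' scale, -0.84 without assembly factors, -0.55 by RPM and -0.38 with totals without Lars2 and Rn45s. By gene, over all 51 members, those totals changed the median from -0.51 to -0.34, the median ratio from 1.04 to 0.434 in Mettl3 KO and from 1.28 to 0.473 in wild-type, the genes above 1 from 27 to 6 in Mettl3 KO and from 33 to 9 in wild-type, and the median log2 of input from 0.26 to 0.57. These shifts follow from the totals, which move every gene of a column alike.

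With a MeTPeak fold of at least 4, members with a peak numbered 3 in Mettl3 KO and 3 in wild-type, with 1 in both and 2 in Mettl3 KO alone, and 1 peak of each list met one of the other. At -log10 q of at least 20, E14 at 5K had 0 members with a MACS2 peak, EPSC 0 and MEF 1; with as many peaks as E14 at 100K, MEF had 1. By RPM without the offset, the higher regions numbered 11 for citric acid cycle genes, 20 for glycolysis and 7 for import factors and chaperones, and cytosolic ribosomal proteins had 27 lower and 30 higher. On that scale 86.6% of all regions were lower and 13.4% higher. With at least 50 reads import factors had 2 higher. The median over all member regions stayed below 0 on each scale, while that of ATP synthase was -0.24 on the authors' scale and 0.26 by RPM. Another 83 alternative values stayed within 1.5 times, or 0.1 log2, of the main value. This number is no measure of robustness. Some values could not move, such as counts of 0 in E14 at 25K and 100K under a stricter q. The limit also let pass 31 higher member regions against 22, with totals without Lars2 and Rn45s. Low reads limit single members: 13 of 95 regions had under 50 reads.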
